A study of Mus musculus with 66 samples.

Results

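The comparison described here set the brain hemisections of 3 mice homozygous for the h5 allele of Rorb against those of 3 wild-type DBA/1J mice, which are 6 of the 66 libraries of the series, and covered all genes in the files. Both groups were on the DBA/1J inbred strain, where h5 arose spontaneously, so each h5 mouse also carried the DBA/1J alleles that its controls carried. The h5 mice were 2 females and 1 male aged 8.4 to 8.7 weeks, and the DBA/1J mice were 1 female and 2 males aged 8.4 to 8.9 weeks. Each library came from 1 mouse, and some h5 and DBA/1J mice shared a series of mouse numbers. A hemisection is one sagittal side of the brain, so cortex, striatum, thalamus, brainstem and cerebellum are mixed in one sample, and in such bulk RNA fewer cells of a type and less RNA per cell cannot be told apart. The allele is carried in the germ line, so every cell of these mice has it. The question was which transcripts differ in the adult brain when the start codon of one Rorb isoform is lost.

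Rorb encodes a nuclear receptor of the retinoid-related orphan receptor family, which binds a short response element in DNA and competes there with the REV-ERB receptors. It has a pair of isoforms made from alternative first exons. Rorb1 is the isoform of the brain and spinal cord, where the gene marks neurons of regions that process sensation, among them layer 4 of the sensory cortex, and Rorb2 is best known from retina and pineal gland. The h5 allele is a thymine-to-cytosine change within the start codon of Rorb1. The reference coding sequences of both isoforms (GENCODE transcripts of the C57BL/6J assembly GRCm39, 60 bases each) are shown because h5 changes the start codon of the first and not that of the second, and the capitals mark the start codon of each:
Rorb1: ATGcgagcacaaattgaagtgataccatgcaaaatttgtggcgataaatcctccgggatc
Rorb2: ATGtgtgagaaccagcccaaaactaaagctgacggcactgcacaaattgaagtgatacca
The sequences share the stretch that follows the alternative first exon and differ before it. In the Rorb1 transcript the next ATG in the same frame is codon 75, in exon 3 of 10.

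The 6 libraries held 34082760 to 42380816 expected counts. The sex labels matched Xist, the transcript of the inactive X, which was at 1256 to 1338 CPM (counts relative to the TMM-scaled library total) in the females and at 0.134 to 0.167 CPM in the males. In a principal component analysis of the 500 most variable genes, 41% of the variance lay on component 1, which separated the sexes more than the genotypes (R2 of 0.817 for sex and 0.259 for genotype). DBA/1J replicate 1 stood apart in its cerebellar markers. The summed level of 14 cerebellar markers was 808.5 CPM in that library and 2410 to 2619 CPM in the other 5. Pcp2, a gene of Purkinje cells, was at 0.0519 CPM there and at 22.5 to 27.8 CPM elsewhere. All 14 markers had a positive fold change, with a median of 0.67 on the log2 scale, and none was at an unadjusted p under 0.05. Without that library the median was 0.15, with 12 of 14 above 0, 5 higher and 1 lower at that value. Values without DBA/1J replicate 1 are therefore given for the counts of calls, for most gene lists and for most of the genes named. In h5 replicate 3, one identifier without a symbol took 1.76% of the counts, against 7.8% to 10.9% in the other 5.

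**Figure D1:**
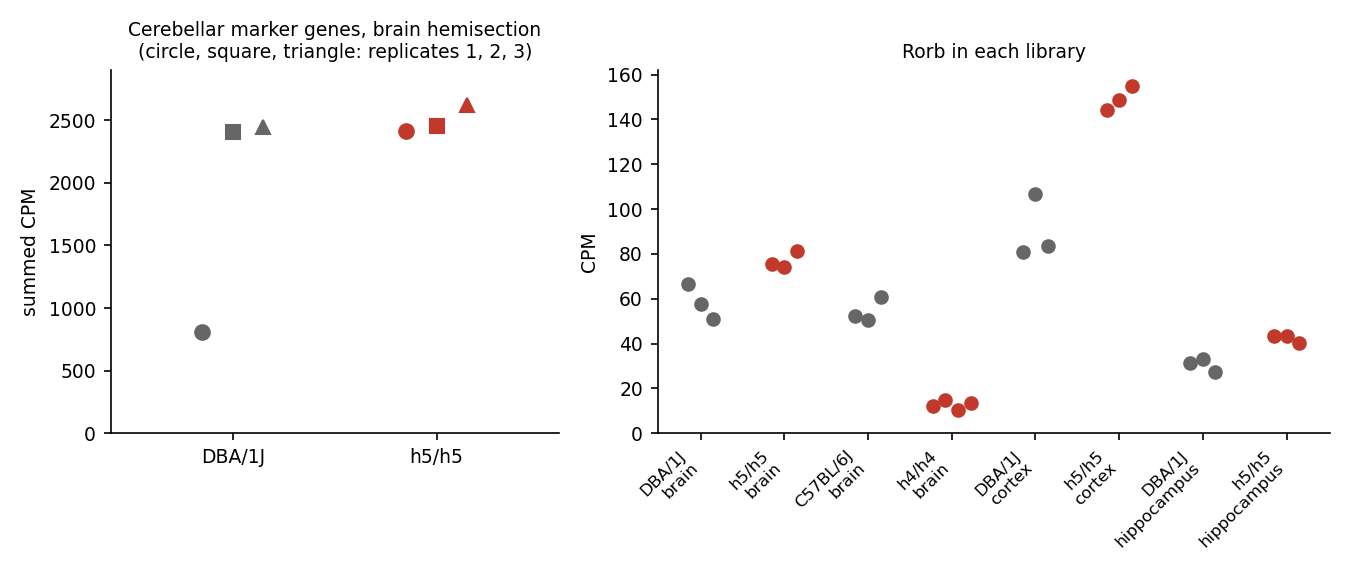
Left, summed CPM of 14 cerebellar marker genes in each hemisection; DBA/1J replicate 1 (circle) lies at 808.5 CPM and the other 5 libraries at 2410 to 2619 CPM. Right, Rorb in CPM, 1 point a library, in 8 groups; the h5 points lie above their DBA/1J controls in brain, cortex and hippocampus, and the 4 h4 brain libraries lie far below C57BL/6J.

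Rorb mRNA was not reduced in the mutant. Rorb (GRCm38 chromosome 19, 18930609 to 19111196) was at 66.6, 57.8 and 51.0 CPM in the DBA/1J brains and at 75.3, 74.1 and 81.4 CPM in the h5 brains. Every h5 library was above every DBA/1J library, and the fold change was 0.40 ± 0.09 (SE) on the log2 scale, or 1.32-fold. The unadjusted p of edgeR's quasi-likelihood test was 0.00147 with an adjusted p of 0.392 over all genes, whereas DESeq2 gave an adjusted p of 0.0114. The exact two-sided permutation test of the 6 values gave p = 0.1, the smallest that 3 against 3 allow. The log2 ratio was 0.62 between the females and 0.26 between the males. With 1 library left out the log2 fold change lay between 0.31 (without DBA/1J replicate 3) and 0.50 (without DBA/1J replicate 1). The DESeq2 call held in 1 of these 6 fits, that without DBA/1J replicate 1, and it was lost with sex as a covariate (DESeq2 adjusted p = 0.0602).

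The groups overlapped for Rora and for the REV-ERB receptors. In TPM, a level scaled for transcript length and library total, Rorb was at 12.2 ± 1.58 (SD, n = 3) in DBA/1J and 16.7 ± 1.43 in h5, below Rora at 46.0 and 55.0 TPM and below the REV-ERB genes Nr1d1 and Nr1d2, which lay between 50.9 and 65.8 TPM in both groups. Rora, the best known family member in Purkinje cells, had a log2 fold change of 0.16 ± 0.09, and one of 0.07 without DBA/1J replicate 1, the library low in cerebellar markers. Nr1d1 and Nr1d2, repressors of the same element, had values of -0.17 and -0.05. Rorb alone among these 4 reached an unadjusted p under 0.05. Of 8 genes with a position within 0.5 Mb of Rorb, 6 were tested, Rorb included, and of the other 5 only Ostf1 was under that value (-0.24 on the log2 scale, with an unadjusted p of 0.0491).

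Differences across all genes were few and small. Of 17299 genes tested, edgeR called 0 at an adjusted p under 0.05 (0% of those tested), with 451 higher (2.61%) and 552 lower (3.19%) in h5 at an unadjusted p under 0.05. Without TMM this split was 1050 higher and 160 lower, with the median of all genes at 0.08 in place of 0.00. It was 557 higher and 534 lower without DBA/1J replicate 1, and 614 and 467 with the series of mouse numbers as a block. Which direction had more genes thus depended on the setting. DESeq2 called 68 genes of the 12126 with an adjusted p, of which 22 were higher (0.181%) and 46 lower (0.379%). Their median change in size was 0.369 on the log2 scale and 1 exceeded 2-fold. In 9827 genes (56.8%) the fitted log2 change was under 0.1 in size. Groups that did not overlap were found for 981 genes with h5 above (5.67%) and 1029 genes with h5 below (5.95%). The groups did not overlap for any of the 68 DESeq2 calls, so for a called gene this separation is a description and adds no support. The number of DESeq2 calls rested on the choice of libraries and on sex: it was 42 without DBA/1J replicate 1, 20 without DBA/1J replicate 2, 108 without DBA/1J replicate 3, 30 without h5 replicate 1, and 15 with sex as a covariate. The 2 genes that edgeR called without DBA/1J replicate 1 were Dbi and Tph2, the serotonin synthesis enzyme of the raphe nuclei, at 0.48 and 1.18 on the log2 scale with an adjusted p of 0.0417 for both.

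**Figure D2:**
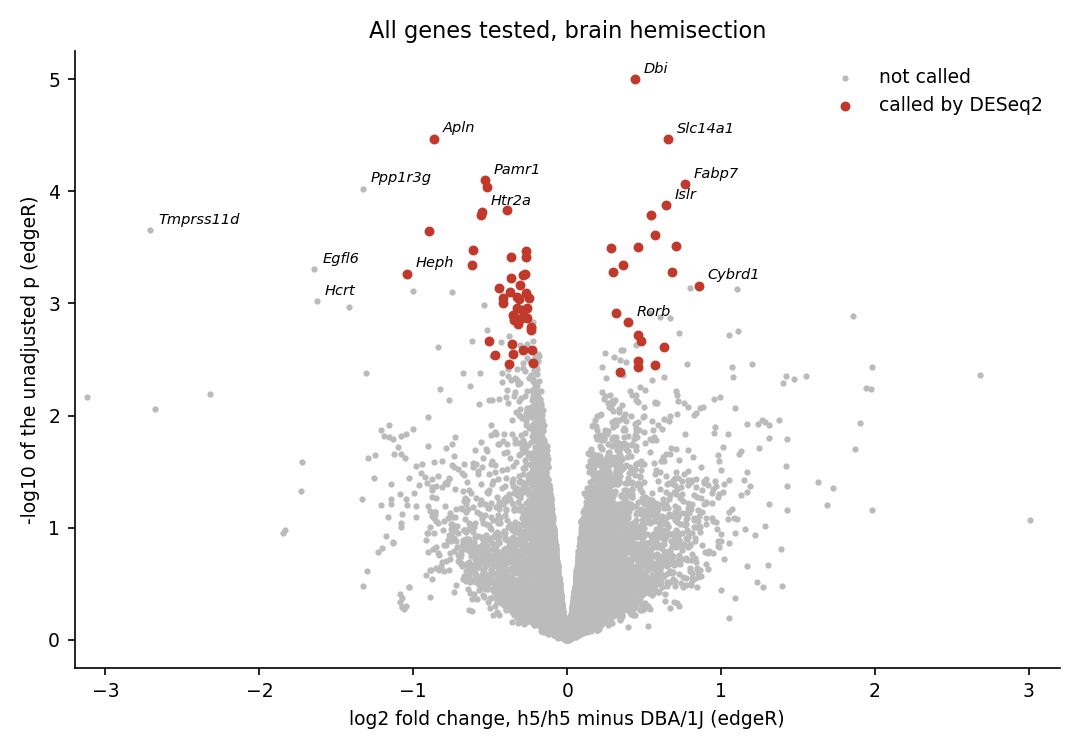
Log2 fold change (h5/h5 minus DBA/1J, horizontal) against the negative log10 of the unadjusted p of edgeR (vertical) for the 17299 genes tested. The 68 genes called by DESeq2 are in red, most of them within 1 log2 unit of 0, and Dbi has the smallest p.

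The calls that did not rest on a single library were 14 genes that DESeq2 called with all libraries and in each of the 6 fits that left out 1 library. Higher in h5 were Dbi, Fabp7, Gfap, Slc14a1, Emp2, Hsd11b1 and Islr. Lower in h5 were Apln, Slc15a2, Irak2, Heph, Htr2a, Pamr1 and 2900052N01Rik. With sex as a covariate, 12 of these 14 were called, the exceptions being Htr2a and Hsd11b1 (adjusted p = 0.052 for both in DESeq2). Since all 14 were selected by this comparison, their values in the hemisections are a description. The log2 fold changes without DBA/1J replicate 1 were 0.48 for Dbi, 0.81 for Fabp7, 0.58 for Gfap, 0.60 for Slc14a1, 0.51 for Emp2 and 0.60 for Islr, and -0.77 for Apln, -0.55 for Slc15a2, -0.51 for Irak2, -1.10 for Heph, -0.52 for Htr2a and -0.55 for Pamr1.

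Several of the higher genes are known from astrocytes, the glial cells that ensheathe synapses and vessels. Dbi, which encodes the acyl-CoA binding protein whose fragments also act on GABA receptors, had the smallest p of all genes. It was at 76.4, 71.1 and 70.8 CPM in DBA/1J and at 98.4, 97.8 and 99.9 CPM in h5, a log2 fold change of 0.44 ± 0.05 (edgeR adjusted p = 0.172, DESeq2 adjusted p = 3.29e-07). The h5 libraries lay within 3 CPM of each other and above all controls.

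Fabp7, the brain lipid-binding protein of radial glia and astrocytes, was at 46.3, 50.9 and 34.9 CPM in DBA/1J and at 76.1, 78.0 and 70.4 CPM in h5 (0.76 ± 0.12, DESeq2 adjusted p = 5.9e-08). Gfap, the intermediate filament that marks reactive astrocytes, was at 193, 160 and 200 CPM in DBA/1J and at 280, 245 and 281 CPM in h5 (0.54 ± 0.09, DESeq2 adjusted p = 1.32e-06). Slc14a1, the urea transporter of astrocytes, was at 15.3, 16.6 and 18.5 CPM against 25.04, 26.7 and 27.6 CPM (0.66 ± 0.09, DESeq2 adjusted p = 1.32e-06). None of these 3 genes overlapped between the groups, and each lowest h5 library was above the highest control. The edgeR adjusted p was 0.234 for Fabp7, 0.235 for Gfap and 0.196 for Slc14a1.

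Emp2, a membrane protein of the tetraspan family, was at 24.8, 24.1 and 21.7 CPM in DBA/1J and at 30.4, 31.8 and 35.1 CPM in h5. Hsd11b1, the enzyme that regenerates active corticosteroid inside cells, was at 9.81, 14.1 and 14.2 CPM against 20.1, 20.9 and 19.9 CPM. The groups were apart for both, and the low control for Hsd11b1 was DBA/1J replicate 1, without which its log2 fold change went from 0.68 to 0.53. Mfge8, a secreted bridge protein for phagocytosis, was called by DESeq2 at 0.28, and in 3 of the 6 fits that left out 1 library, but not with sex as a covariate (DESeq2 adjusted p = 0.278).

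Among the genes that were lower, Apln had the smallest p. It encodes apelin, a secreted peptide that acts through a receptor of vessels and neurons. It was at 26.7, 24.6 and 20.3 CPM in DBA/1J and at 11.6, 13.9 and 13.8 CPM in h5 (-0.86 ± 0.12, edgeR adjusted p = 0.196, DESeq2 adjusted p = 5.9e-08). The h5 level was 0.549 of that of the controls, with no overlap. Of 8 genes of the apelin and adrenomedullin systems, 7 were tested, and Apln alone was under an unadjusted p of 0.05, beside a median of 0.03 for the list.

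Slc15a2, the peptide transporter of astrocytes, went the other way from Fabp7 and Gfap, at 41.1, 36.8 and 44.1 CPM in DBA/1J against 25.2, 26.9 and 30.6 CPM in h5 (-0.56 ± 0.09). Heph, a copper-dependent ferroxidase of iron export, was at 8.98, 8.25 and 12.3 CPM against 4.48, 6.16 and 3.76 CPM (-1.04 ± 0.20). Irak2, a kinase of interleukin-1 and Toll-like receptor signalling, was at 16.8, 15.9 and 16.7 CPM against 12.01, 11.0 and 11.5 CPM (-0.52 ± 0.08). All 3 were without overlap, and the within-group spread of Irak2 was the narrowest of them. Heph had log2 ratios of -1.58 between females and -0.48 between males.

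Htr2a, the serotonin 2A receptor of cortical pyramidal neurons, was at 19.6, 16.9 and 19.8 CPM in DBA/1J and at 12.6, 13.5 and 12.3 CPM in h5 (-0.55 ± 0.09, DESeq2 adjusted p = 0.00123). Pamr1, a secreted protein with a peptidase-like domain, was at 21.2, 23.1 and 21.2 CPM against 14.4, 15.9 and 14.97 CPM. The groups were apart for both genes, and edgeR called neither. The remaining 2 of the 14, Islr, a secreted protein of connective tissue cells, and 2900052N01Rik, a transcript without an assigned function, had log2 fold changes of 0.64 and -0.62.

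**Figure D3:**
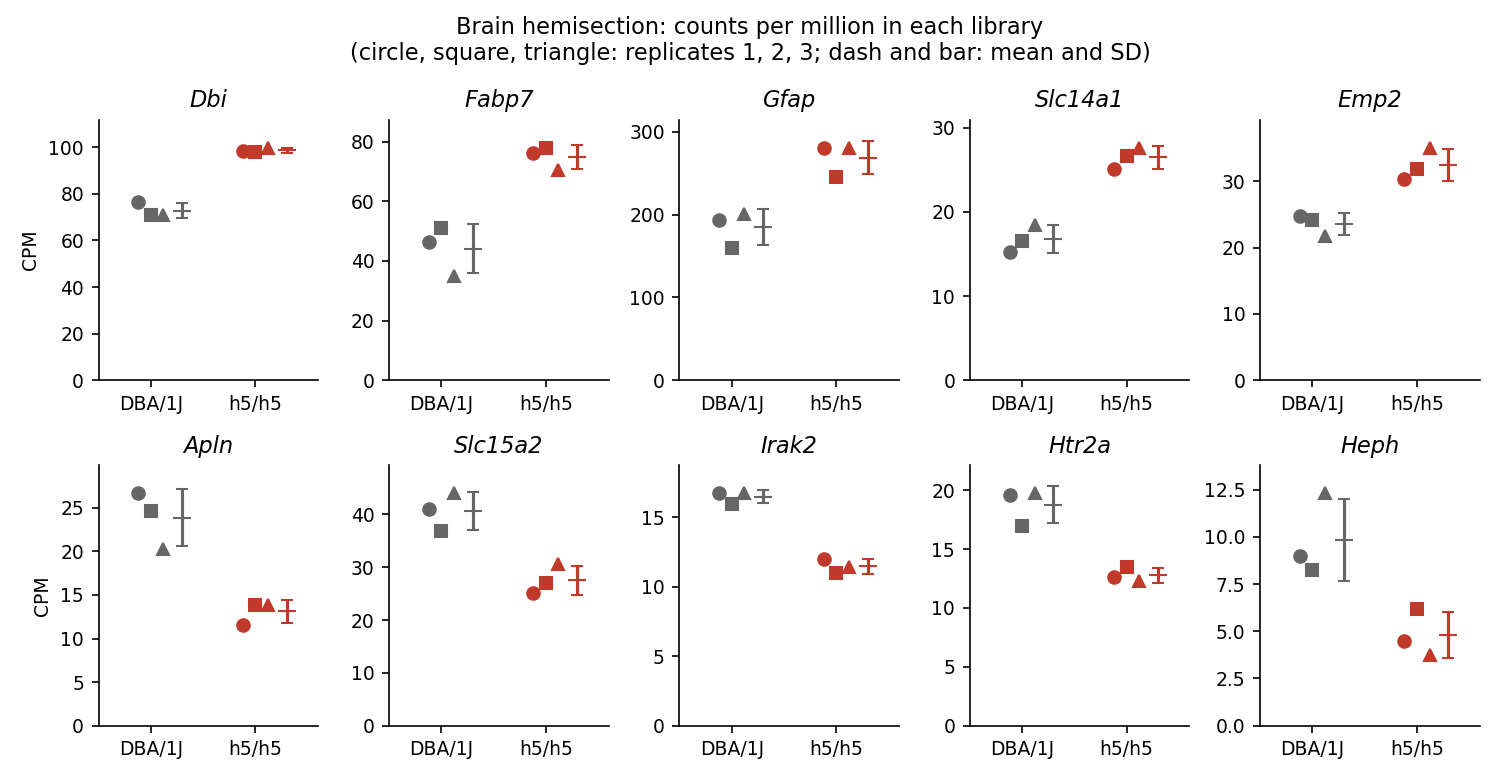
CPM (vertical axes, from 0) of 10 of the 14 genes in the 3 DBA/1J (grey) and 3 h5 (red) hemisections, with the mean and SD beside the points. The upper row holds genes that are higher in h5 and the lower row genes that are lower, and the groups do not overlap in any panel.

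Among the 25 genes of smallest p, 3 had no adjusted p in DESeq2. Tmprss11d, a membrane serine protease, was at 0.727, 0.444 and 0.727 CPM in DBA/1J and at 0.0602, 0.0804 and 0.132 CPM in h5 (-2.71 ± 0.47). Ppp1r3g, which directs protein phosphatase 1 to glycogen, was at 2.85, 4.14 and 3.63 CPM against 1.48, 1.15 and 1.58 CPM (-1.33 ± 0.21). Egfl6, a secreted matrix protein, was at 2.26, 2.55 and 1.54 CPM against 0.542, 0.482 and 0.968 CPM (-1.65 ± 0.32). The edgeR adjusted p was 0.277, 0.234 and 0.322 in that order, with no overlap between groups in any of them. Their log2 fold changes without DBA/1J replicate 1 were -2.59, -1.46 and -1.59. Acat3, a cytosolic acetyl-CoA acetyltransferase, had a log2 fold change of -0.90 and resembles its paralog Acat2, so the estimate could split reads between the pair.

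The same genes were examined in libraries the selection had not used. Cortex, hippocampus and cerebellum were labelled 7.0 weeks old, an age that no hemisection carries, and the mouse numbers of the deposited files show that the 3 regions came from the same 3 h5 and 3 DBA/1J mice, so the regions share animals and are not separate tests. Those mouse numbers differ from the numbers of the hemisections. The methods describe dissection of regions from the remaining side of h5 brains, whereas ages and mouse numbers differ between regions and hemisections, which were treated here as different mice, and whether any animal was shared was not tested. In these 3 regions h5 replicate 3 was labelled female, but Ddx3y, a gene of the Y chromosome, was at 58.2 to 86.3 CPM and Xist at 0.32 CPM or lower, so it went against its label in sex. Of the 25 genes with the smallest p in the hemisections, 10 higher and 15 lower, 24 were tested in cortex. There 20 had the same direction, and 17 had it at an unadjusted p under 0.05, namely 9 of the 10 higher genes and 8 of the 14 lower ones tested. Over all genes tested in cortex, 2.86% were higher and 3.57% lower at that value. In hippocampus, 7 of 10 and 5 of 14 met it, against 2.16% and 2.05% of all genes, and in cerebellum 5 of 10 and 4 of 13, against 2.38% and 3.24%. The opposite direction at that value was met by 0 of the 24 tested in cortex and in hippocampus and by 1 of 23 in cerebellum. Without h5 replicate 3 of each region, a fit added after that label was found, 7 higher and 9 lower genes met the criterion in cortex, 7 and 6 in hippocampus and 5 and 6 in cerebellum. The shares of all genes were then 2.33% and 3.73%, 2.3% and 2.59%, and 3.31% and 4.04%, and 1 gene each in hippocampus and cerebellum had the opposite direction at an unadjusted p under 0.05. Of the 68 DESeq2 calls, 34 met the same criterion in cortex, 16 of 22 higher and 18 of 46 lower. In hippocampus 13 higher and 8 lower calls met it, with 0 opposite, and in cerebellum 11 and 5, with 3 opposite.

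Apln was lower in cortex and hippocampus, with a log2 fold change of -1.49 in cortex, at an unadjusted p of 1.6e-05, and -1.47 in hippocampus, at one of 5.81e-05. In cerebellum it was at -0.24, with a DBA/1J range of 11.8 to 12.9 CPM and an h5 range of 9.43 to 12.6 CPM that overlapped. Without h5 replicate 3 the 3 values of Apln were -1.55, -1.73 and -0.38, the last at an unadjusted p of 0.00458. Fabp7 was higher in every region, by 0.87 in cortex, 1.33 in hippocampus and 0.78 in cerebellum. Heph was at -1.54, -1.10 and -1.12 in these regions and Slc15a2 at -0.66, -0.40 and -0.70. Gfap was at 0.75 in cortex, 0.33 in hippocampus and 0.34 in cerebellum, and Slc14a1 at 0.89, 0.60 and 0.15. Rorb was at 0.72, 0.47 and 0.56 in cortex, hippocampus and cerebellum, and in none of these regions did the h5 and control values overlap.

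Other genes of the hemisections were near 0 in the dissected regions. Htr2a was at 0.10 in cortex and 0.11 in hippocampus, Grm3, a metabotropic glutamate receptor, at 0.02 in cortex, and Epha4, an axon guidance receptor, at 0.14 and -0.07. A list of 12 striatal markers had a median of 0.92 in cortex. In the hemisections that list had a median of -0.14, with 2 of 12 members above 0 and 3 lower at an unadjusted p under 0.05. The summed level of the striatal list was 712.8 to 787 CPM in DBA/1J and 676.7 to 691.3 CPM in h5 hemisections. The part of the amount of striatum in these values was not tested.

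Spinal cord came from the same 6 mice as the hemisections. There Fabp7 had a log2 fold change of 0.76, Rorb 0.25, Apln -0.36, Heph -0.50, Slc15a2 -0.24, Irak2 -0.31 and Gfap 0.12. A fit of both tissues with the animal as a block tested whether the h5 effect differed between them. edgeR called 0 genes of 18190 (0%) at an adjusted p under 0.05, with 727 at an unadjusted p under 0.05. The genes with the smallest p were Rxfp1, the relaxin receptor, with -0.20 in brain and 0.65 in spinal cord, and Apln, both at an adjusted p of 0.994.

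**Figure D4:**
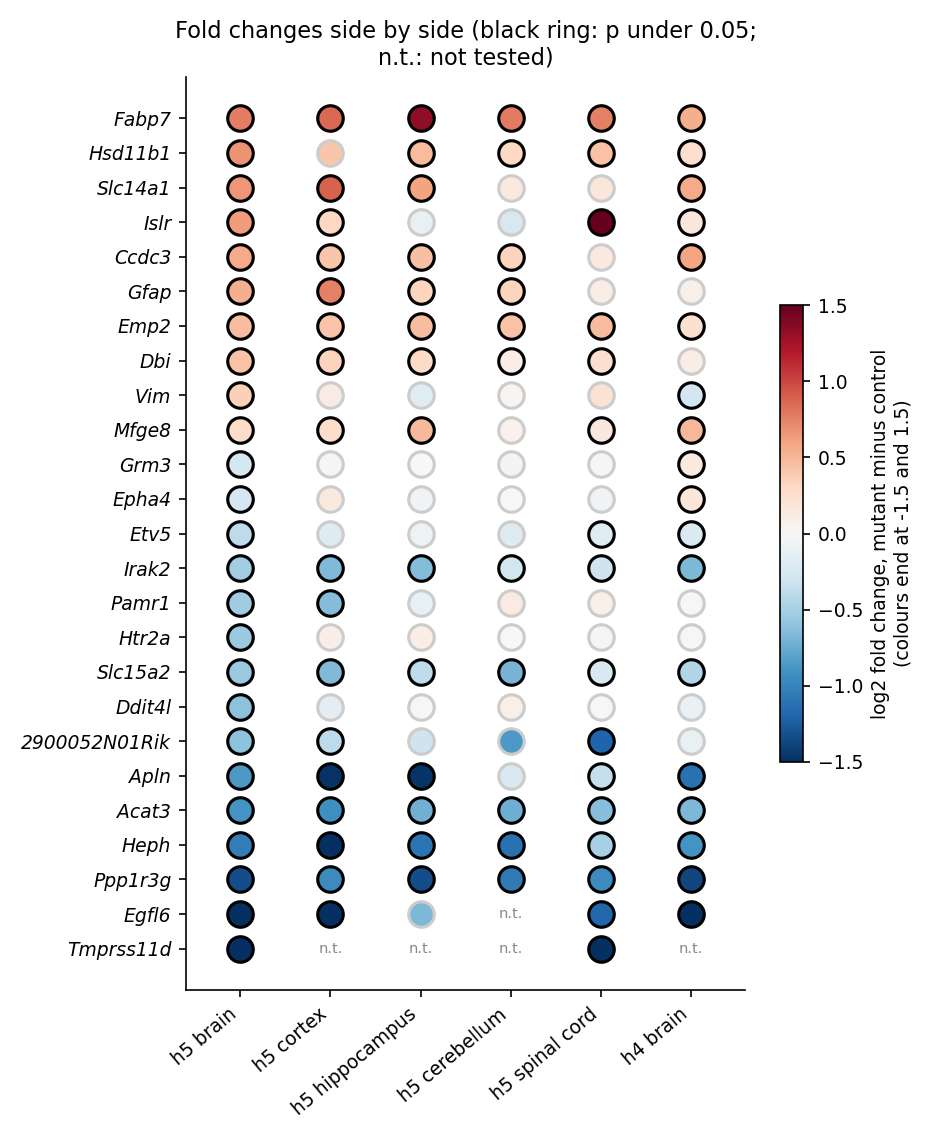
Log2 fold changes (colour, mutant minus control) of 25 genes, 23 of those of smallest p with Hsd11b1 and Heph, in the h5 hemisection, in 4 other h5 tissues and in the h4 hemisection; a black ring marks an unadjusted p under 0.05 and n.t. a gene not tested. Fabp7, Irak2, Slc15a2, Acat3, Emp2, Heph and Ppp1r3g carry a ring in every column, while Htr2a and Ddit4l carry one only in the first.

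The h4 allele gave a second comparison with no library in common (4 h4 and 3 C57BL/6J hemisections). The h4 mice were 2 females and 2 males aged 8.4 to 8.6 weeks, and the C57BL/6J mice were 2 females and 1 male, all aged 8.0 weeks, so age moved with genotype. The h4 allele arose in a C57BL/6J congenic strain that carries a targeted allele of Il1r1, the interleukin-1 receptor, so its mice may differ from C57BL/6J beyond Rorb. A single fit tested the h5 effect against the h4 effect. edgeR called 1 gene of 18141 (0.00551%), and this was Rorb, with a difference of 2.50 ± 0.15 (SE) on the log2 scale (adjusted p = 9.39e-07). Rorb was at 52.4, 50.5 and 60.6 CPM in C57BL/6J and at 12.1, 14.7, 10.4 and 13.4 CPM in h4, a log2 fold change of -2.10 against the 0.40 of h5. The second smallest p was that of Ide, an insulin-degrading protease on the chromosome of Rorb (0.05 in h5, 0.52 in h4, adjusted p = 0.176). Strain, allele, the Il1r1 background and the age gap in h4 cannot be told apart in this difference.

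Several of the h5 genes had a similar value in h4. Of the 24 genes of smallest p tested in both, 19 had the same direction and 14 had it at an unadjusted p under 0.05, 7 of 10 higher and 7 of 14 lower, where 6.55% and 6.66% of all genes were higher and lower at that value. Apln was at 37.5, 30.8 and 30.0 CPM in C57BL/6J and at 16.0, 12.6, 17.1 and 14.6 CPM in h4 (-1.13, edgeR adjusted p = 0.000732). Fabp7 was at 0.55 with an adjusted p of 0.018, Slc14a1 at 0.57 with 0.0125, Irak2 at -0.68 with 0.00393 and Heph at -0.90 with 0.00748, all by edgeR. The part of the Il1r1 background and of age in the h4 values, Irak2 included, was not tested. Egfl6 (-2.20), Ppp1r3g (-1.38) and Ccdc3 (0.60), a secreted protein of vessels and fat, also passed in h4. Vim, Grm3 and Epha4 had the opposite direction in h4 at an unadjusted p under 0.05. Gfap was at 0.54 in h5 and 0.09 in h4, a difference of 0.45 with an adjusted p of 0.34. Of the 68 DESeq2 calls, 26 had the same direction in h4 at an unadjusted p under 0.05 and 11 the opposite one.

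Gene groups were read by their counts and medians beside a median of 0.00 over all genes, of which 51.2% were above 0. At an unadjusted p under 0.05, 2.61% of all genes were higher and 3.19% lower, and 5.67% lay above and 5.95% below without overlap. The medians of the immediate early, heat shock, clock, collagen, fibroblast, ependymal and glutamatergic lists kept their sign in all 14 alternatives, and that of the immediate early list ranged from -0.65 to -0.01. The astrocyte list split. Of 21 members tested, 15 were above 0, and at an unadjusted p under 0.05 there were 5 higher and 6 lower. These counts were 3 and 5, with 12 above 0, without DBA/1J replicate 1. Fabp7, Gfap and Slc14a1 were called higher by DESeq2, and Slc15a2 and Ntsr2, a neurotensin receptor (-0.37), were called lower. The call of Ntsr2 held in 1 of the 6 fits that left out 1 library, and it was lost without DBA/1J replicate 1 (DESeq2 adjusted p = 0.104) and with sex as a covariate (0.346). Glul, the glutamine synthetase, and Slc1a2, the main glutamate transporter, were at -0.23 and -0.18, each with lower values in all h5 libraries, while Slc1a3, the other glial transporter, was at 0.26 with overlapping groups, and at 0.17 without DBA/1J replicate 1. Aqp4, Gja1 and Aldoc were between 0.04 and 0.08, and without that library at 0.09, 0.10 and -0.01. The summed level of the 22 astrocyte genes was 7938 to 8242 CPM in DBA/1J and 7567 to 8253 CPM in h5, and these ranges overlapped. Dio2, the thyroid hormone activating deiodinase of astrocytes, was at 77.1, 85.0 and 63.2 CPM against 42.3, 35.8 and 56.0 CPM (-0.75 ± 0.15), without overlap and at an unadjusted p of 0.000787, and was at -1.02 in cortex, -0.81 in hippocampus and -0.98 in h4. DESeq2 did not call it (adjusted p = 0.112), and its log2 fold change in cerebellum was 0.00, or -0.18 without h5 replicate 3. In the hemisections without DBA/1J replicate 1, Dio2 was at -0.73.

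Most collagens and fibroblast genes had positive fold changes. Of 24 collagen chains, 21 were above 0 with a median of 0.24, and 9 were higher and 0 lower at an unadjusted p under 0.05, where 2.61% of all genes were higher. There were 8 higher and 0 lower without DBA/1J replicate 1. Col3a1 (0.63), Col1a1 (0.57) and Col1a2 (0.38), the chains of the main fibrillar collagens, did not overlap, while the other fibrillar chains tested (Col5a1, Col5a2, Col5a3, Col11a1, Col11a2 and Col27a1) overlapped. Col3a1, Col1a1 and Col1a2 were at 0.73, 0.61 and 0.35 without that library. DESeq2 called Col3a1 and Col1a1, in 3 and 1 of the 6 fits that left out 1 library, and with sex as a covariate neither was called (DESeq2 adjusted p = 0.375 and 0.432). Without DBA/1J replicate 1 the DESeq2 adjusted p of Col1a1 was 0.0524. Of 20 genes of meningeal fibroblasts, 14 were above 0, with 7 higher and 1 lower at that value and a median of 0.22, and without DBA/1J replicate 1 with 8 and 1. Of the 7, Col3a1, Col1a1 and Col1a2 were already counted among the collagens. Mgp, a matrix calcification inhibitor, and Lum, a small proteoglycan, were at 0.54 and 0.66, whereas Pamr1 was the 1 gene lower at an unadjusted p under 0.05. In all, 6 of the 20 were below 0. Among them were Slc22a6, Slc13a4, Ogn, Igf2 and Fmod, at -0.19 to -0.03 with overlapping groups. The list had a median of 1.61 in spinal cord, while cortex gave 0.18, hippocampus -0.16 and cerebellum -0.04. The amount of meninges kept on each sample was not recorded in the labels, and its part in these values was not tested. The summed level of the list was 287.1 to 371.8 CPM in DBA/1J and 343.2 to 390.4 CPM in h5. Ependymal genes, of the cells that line the ventricles, were above 0 in 8 of 9 with a median of 0.41. Rarres2, Mia and Rsph1, 3 of them, were higher at an unadjusted p under 0.05, where 2.61% of all genes were higher. DESeq2 called 0 of the list. Its genes were low, with a summed level of 18.6 to 24.0 CPM in DBA/1J and 26.2 to 29.0 CPM in h5. The median of the list was 0.24 in cortex, 0.04 in hippocampus, -0.11 in cerebellum, 0.125 in spinal cord and -0.04 in h4. Without DBA/1J replicate 1 all 9 were above 0 with a median of 0.53.

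Most clock genes had negative fold changes. Of 15 tested, 2 were above 0, with a median of -0.16 and 5 lower at an unadjusted p under 0.05, beside 3.19% of all genes, and 4 lower without DBA/1J replicate 1. These were Bhlhe40 (-0.42, called by DESeq2), Per2 (-0.38), Npas2 (-0.27), Hlf (-0.19) and Cry2 (-0.16), and none of the 5 overlapped between groups. The call of Bhlhe40 held in 2 of the 6 fits that left out 1 library and was lost with sex as a covariate (DESeq2 adjusted p = 0.236). Without DBA/1J replicate 1, Npas2 was at -0.21 with an unadjusted p of 0.06. Bmal1 and Clock, the core activators, were at -0.23 and -0.01, with overlapping groups. The list had a median of -0.19 in cortex, -0.15 in hippocampus and 0.02 in h4, and the hour of collection was not given in the labels.

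Heat shock genes, 12 of cytosolic chaperones and their partners with the mitochondrial chaperonins Hspd1 and Hspe1, were below 0 in 13 of 14, with a median of -0.20 and 6 lower at an unadjusted p under 0.05, and 4 lower without DBA/1J replicate 1. Hspa1b, an inducible chaperone, was at 34.0, 64.4 and 16.5 CPM in DBA/1J and at 21.3, 17.4 and 13.7 CPM in h5. The female control lay among the h5 values, and the log2 ratio was 0.05 between females and -1.42 between males. Its fold change without DBA/1J replicate 1 was -1.21 on the log2 scale. Immediate early genes, which respond to neuronal activity within minutes, had a median of -0.30 and 3 of 20 lower at that value. The median was -0.18 with 2 lower without DBA/1J replicate 1, and Homer1 was then at -0.61. With all libraries Homer1 was at 243, 268 and 158 CPM against 122, 130 and 168 CPM, so the groups overlapped in the same way, with -0.14 between females and -0.98 between males. Of 26 genes of endoplasmic reticulum folding, 6 were above 0, with 1 higher and 2 lower at an unadjusted p under 0.05 (median -0.07).

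Lists of glutamatergic neurons and of NMDA receptor subunits had medians of -0.16 and -0.14, and a list of GABA neurons one of 0.08. Of 10 genes of glutamatergic neurons, 2 were above 0 and 3 were lower at an unadjusted p under 0.05. Camk2a, a synaptic kinase, was at -0.18 and Grin2b and Grin2a, NMDA receptor subunits, at -0.22 and -0.19, each without overlap. The medians without DBA/1J replicate 1 were -0.13, -0.11 and 0.01, with 2 of the 10 glutamatergic genes lower at that value. DESeq2 called none of these 3 genes.

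Layer 4 of the cortex, where Rorb is a marker, had 7 listed genes, of which 1 was above 0. Kcnab3, a potassium channel subunit, was at 54.8, 57.4 and 52.6 CPM in DBA/1J and at 43.4, 49.4 and 37.7 CPM in h5 (-0.34 ± 0.09). Rspo1, a Wnt agonist, was at -0.79 and Cux2 at 0.19, and all 3 were at an unadjusted p under 0.05. Kcnab3 was without overlap and Rspo1 overlapped. The median of the list was -0.08 in the hemisections and -0.62 in dissected cortex, where Kcnab3 and Rspo1 were at -0.68 and -1.41. Other lists moved in the same cortex libraries, with medians of 0.92 for striatum, 0.27 for layer 6, -0.80 for olfactory bulb and -0.28 for endothelium, and the part of tissue content in the layer 4 values was not tested. In the fit without DBA/1J replicate 1 the list had a median of -0.10, and Rspo1 was at -0.62 and an unadjusted p of 0.0602. The list of layers 2 and 3 had a median of 0.02, with 1 of 8 genes higher (Wfs1, 0.46, called by DESeq2) and 1 lower (Lamp5, -0.30) at an unadjusted p under 0.05, and Wfs1 was at 0.71 in cortex. Its call held in 3 of the 6 fits and was lost with sex as a covariate (DESeq2 adjusted p = 0.0669).

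Hcrt, the precursor of the wake-promoting orexin peptides, was at 4.26, 1.78 and 2.00 CPM in DBA/1J and at 0.752, 0.965 and 0.879 CPM in h5 (-1.63 ± 0.35), without overlap and at an unadjusted p of 0.000955, among 10 hypothalamic genes tested with a median of 0.17. Its highest value was DBA/1J replicate 1, without which the fold change was -1.12 on the log2 scale and the median of the list 0.35. In h4 it was at -0.07. Microglial genes had a median of -0.08 with none of 14 under an unadjusted p of 0.05, oligodendrocyte genes one of -0.08 with 1 of 16, Myrf at -0.19, and endothelial genes one of 0.00 with 1 of 18. Without DBA/1J replicate 1 the medians of the microglial and oligodendrocyte lists were 0.02 and 0.00. Cholesterol synthesis genes were above 0 in 17 of 21 with a median of 0.06 and none under that value, and without DBA/1J replicate 1 they were above 0 in 19 of 21 with 7 under it.

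**Figure D5:**
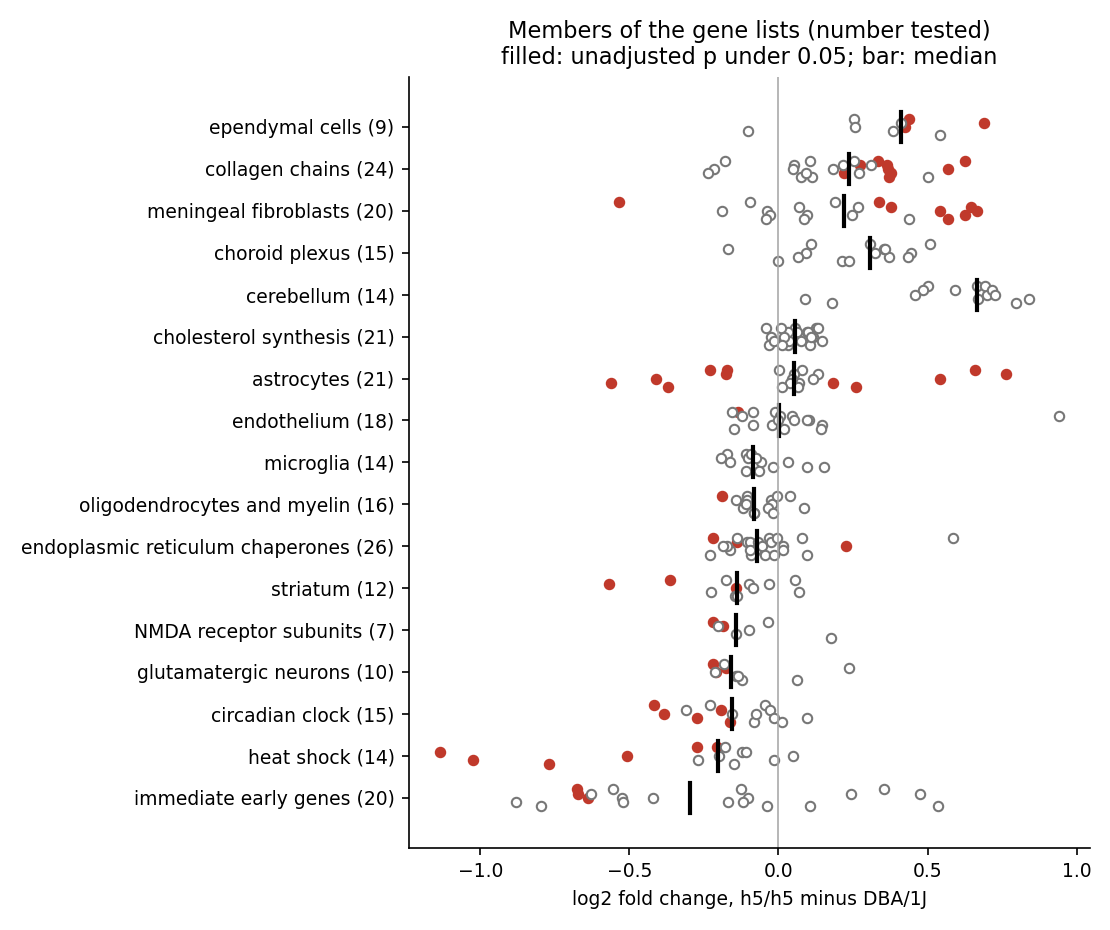
Log2 fold change (h5/h5 minus DBA/1J) of every tested member of 17 gene lists, with the number tested in brackets; filled points have an unadjusted p under 0.05 and the bar is the median. Collagen, fibroblast and ependymal lists lie mostly above 0, clock and heat shock lists mostly below, astrocyte genes spread to both sides, and no cerebellar marker is filled.

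The response element of the receptor family was searched in the promoters of the called genes, since Rorb is a DNA-binding factor. The letters TAGGTCA, on either strand, were looked for in the 250 bases before each start in RefSeq promoters (GRCm38.p6). Of 71 genes that DESeq2 called or that had the smallest p, 56 had a promoter in the set and 3 of these held the letters (5.36%), against 240 of 12081 tested genes with a promoter (1.99%). The windows of the 3 genes, written on the gene's strand with the reverse complement of the motif in capitals, are these:
Fabp7, chr10:57784727-57784783, + strand: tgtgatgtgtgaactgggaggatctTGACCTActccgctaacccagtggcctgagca
Pakap, chr4:57567587-57567643, + strand: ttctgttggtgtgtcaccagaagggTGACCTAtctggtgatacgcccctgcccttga
R3hdm1, chr1:128103226-128103282, + strand: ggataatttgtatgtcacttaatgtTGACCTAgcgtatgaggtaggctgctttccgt
Fabp7 was higher in h5, and Pakap was at -0.42 and R3hdm1 at -0.34, with DESeq2 calls that held in 1 and 3 of the 6 fits that left out 1 library. A match of letters is a description and not a binding site.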

How the data were processed

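Total RNA of brain hemisections was sequenced as poly(A)-selected paired-end libraries. The authors trimmed reads with Trim Galore, aligned them to GRCm38 with STAR and estimated gene expression with RSEM at default settings, which use no strand, so overlapping antisense genes cannot be told apart. The deposited expected counts, of which 5.07% were not whole, were rounded, and the deposited TPM served only to compare levels between genes. Symbols were taken from GENCODE for 41403 of 45706 identifiers, and positions in GRCm38 from RefSeq.

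Genes passing filterByExpr were scaled by TMM and tested with the quasi-likelihood test of edgeR 4.0.16 in R, h5 against DBA/1J in one tissue, with Benjamini-Hochberg adjustment at 0.05. CPM use the TMM-scaled library totals, and errors are SE of the log2 fold change or SD (n = 3). DESeq2 1.42.0, the authors' tool, was the alternative. With 34082760 to 42380816 counts a library, genes at a few CPM are the least precise. Mice are the replicates. Within groups, 0.671% to 1.31% of tested genes had equal counts in a pair of libraries, and no pair was identical. Named genes were the ROR and REV-ERB receptors, genes within 0.5 Mb of Rorb, the 25 of smallest p, the 15 of smallest DESeq2 p, the 4 of smallest p in each list and any member called, and 2 for each difference of effects. Glul, Slc1a2, Slc1a3, Aqp4, Gja1, Aldoc, Lum, Cry2, Bmal1, Clock, Pakap, R3hdm1, Pcp2 and the fibrillar chains that overlapped fall outside this rule and were chosen after their values were seen. The same holds for the fibroblast genes named below 0, other than Pamr1. The members and lists were chosen with earlier results of these data known. The fits were tested on simulated data. Spinal cord libraries of the C57BL/6J alleles (18) were not used here. Some genes that the rule names are not reported here.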

Additional observations from a re-analysis of the deposited data

Results flagged for a closer look

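The difference between the effects of the alleles on Rorb itself was tested in one fit of h5, DBA/1J, h4 and C57BL/6J hemisections. The h5 effect exceeded the h4 effect by 2.50 on the log2 scale (edgeR adjusted p = 9.39e-07), with every h5 library above every DBA/1J library and every h4 library below every C57BL/6J library. The difference lay between 2.41 and 2.60 in the fits that left out 1 h5 or DBA/1J mouse.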

How the results depend on the processing

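The number of genes called by edgeR was 0 with DESeq2 size factors, with no scaling beyond the library total, with sex as a covariate, with the series of mouse numbers (the identifier series) as a block and without the largest unnamed identifier. It was 68 in DESeq2, 22 when all genes with a count were kept, 45 when all 7 brain groups shared one fit, and 0 to 2 when 1 library was left out. Of these 22 and 45 genes, 18 and 29 were also DESeq2 calls. The deviations of same-numbered libraries correlated at -0.079, 0.14 and 0.17, and those of the other pairs at -0.22 to 0.078. Replicates 1 of both groups shared a series of mouse numbers, as did replicates 3. These values cannot show whether the replicate numbers pair the mice. The replicate block gave 0 calls in edgeR. Rorb was called under DESeq2, at 0.40, and in no edgeR setting, at 0.31 to 0.50. In DESeq2 its call held in 1 of the 6 fits that left out 1 library and was lost with sex as a covariate. The DESeq2 count, examined further after seeing the data, was 15 with sex as a covariate, 31 with the replicate block, and 20 to 108 when 1 library was left out. For the h5 effect against the h4 effect, the count was 27 with all genes that had a count and 1 to 2 when 1 library was left out, and for brain against spinal cord it was 0 throughout, also without the animal block. Without scaling beyond the library total the median of all genes was 0.08, and 1050 genes were higher and 160 lower at an unadjusted p under 0.05. Of 122 named genes under 14 alternatives, 14 values had the other sign, all in genes at 0.12 or less in size: Nr1d2 (0.031 without scaling, -0.185 to 0.026 with 1 library left out), Carnmt1 (-0.109 to 0.245 with 1 left out), Trpm6 (-0.066 with sex, -0.261 with the identifier series, -0.220 to 0.229 with 1 left out) and D030056L22Rik (0.063 without scaling, 0.037 with sex, -0.056 to 0.057 with 1 left out). Of 560 list medians, 488 moved by less than 0.1. With 3 mice a group and unequal sexes, small differences may have been missed, and the smallest detectable difference was not estimated.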

Other observations

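Serotonin neuron genes were at different levels among the controls. Tph2 was at 13.0 CPM in DBA/1J replicate 1, 5.19 and 4.80 CPM in the other 2 controls and 10.4, 11.2 and 12.4 CPM in the h5 brains, and Slc6a4, the serotonin transporter, was at 8.02, 2.83 and 3.14 CPM against 6.26, 7.29 and 8.29 CPM. DBA/1J replicate 1 lay with the h5 libraries for both genes, and it is the library with the low cerebellar markers.

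Choroid plexus genes varied more between libraries than between groups, with a summed level of 657.6, 832.6 and 1123 CPM in DBA/1J and 583.4, 1060 and 1328 CPM in h5. Pituitary genes were at 4.97 CPM in total or lower in every library, and Cga, the shared subunit of pituitary hormones, was at 0.111 to 0.337 CPM in DBA/1J and at 0.268 to 1.20 CPM in h5.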
